A study of Mus musculus with 16 samples.

Results

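Regulatory T cells (Treg) of mouse visceral adipose tissue (VAT) that lacked Hpgd were compared with wild-type (WT) Treg from the same depot. The comparison covers 7 of the 16 libraries of the series, chosen by their titles: 3 Treg WT and 4 Treg KO. The other 9 libraries hold conventional T cells (Tconv) of the same fat, 4 WT and 5 KO, and serve here only to estimate the spread and to ask whether a difference was larger in Treg than in Tconv. The animals were C57BL/6JRcc mice aged 12 weeks. In the deleted mice, a floxed Hpgd allele (Hpgd fl) was removed by Foxp3-YFP-Cre, a Cre recombinase joined to YFP and expressed from Foxp3. Cre is thereby directed to Treg, so Tconv of these mice were not the targeted cells. The label for the mouse line is the same text in all 16 samples, so the genotype rests on the titles, and whether WT mice also carried the Cre or the floxed allele is not stated in the labels. The series lists 5 deleted and 4 WT animals without tying libraries to animals, so p-values measure the spread between these libraries, which may be partly technical. RNA came from cells sorted by flow cytometry, and 10 ng per sample was copied into cDNA by SMART-seq2, a full-length method that does not mark the strand.

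Hpgd encodes 15-hydroxyprostaglandin dehydrogenase, the enzyme that begins the breakdown of prostaglandin E2 by oxidising it to 15-keto prostaglandin E2. Prostaglandin E2 acts on T cells mainly through the receptors EP2 (Ptger2) and EP4 (Ptger4), which raise cyclic AMP, while oxidised prostaglandins can act as ligands of the nuclear receptor PPARγ. Treg of visceral fat are a tissue-adapted population known for high PPARγ, GATA3 and the interleukin-33 receptor ST2, and for restraining inflammation in the fat. The comparison asks what the loss of a prostaglandin-degrading enzyme does to the transcripts of these cells.

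Values are the deposited normalised values, which are the reads of a gene scaled by the size factor of its library and raised by 1, so 1.00 stands for no reads. Values are listed for Treg WT 1, Treg WT 2 and the library labelled Treg WT 3, in that order, and then for Treg KO 1 to 4. The 7 libraries held between 4.77 M and 9.10 M reads, and a value of 3 reads, the floor used here, lay between 3.62 and 5.61. These reads carry no molecular identifiers and can be copies of 1 molecule, so floors cover counting error only. Across genes, which are not independent replicates, log2 values correlated at r from 0.828 to 0.882 between Treg WT libraries, 0.876 to 0.897 between Treg KO libraries and 0.822 to 0.909 between the groups. Libraries of different genotype thus overlapped in likeness with libraries of the same genotype. Each pair with Treg WT 2 lay between 0.822 and 0.843, and every other pair at 0.859 or more. Treg KO libraries had reads for 15135 to 16041 genes and Treg WT libraries for 14216 to 14874. Thinned by calculation to the 4.77 M reads of the shallowest Treg library, the expected numbers were 14834 to 16041 and 13689 to 14472, so the groups did not overlap at a matched number of reads either. Matching reads does not match the number of molecules copied.

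Hpgd, the deleted gene (chromosome 8, 56294585 to 56321043 on the plus strand of mm10), was nearly absent from Treg KO. It read 73.1, 56.0 and 4.31 in Treg WT and 3.41, 2.54, 2.42 and 1.00 in Treg KO, from 79, 63 and 3 reads and from 2, 1, 1 and 0 reads. The groups did not overlap, but the library labelled Treg WT 3 lay just above Treg KO 1, so the gap rests on Treg WT 1 and 2. The log2 difference was −3.13 (95% interval −4.76 to −1.51), from a separate limma fit over 19536 genes with no filter on low values, in which Hpgd did not pass (adjusted p = 0.546). An exact permutation test over the 7 libraries, made 2-sided by doubling the smaller tail, gave p = 0.0571. That is the smallest value this form of the test allows with 35 splits. Hpgd was not among the 14319 genes tested, because it did not reach 10 in at least 3 of the 16 libraries. Because the deleted gene nearly matched Treg KO in the library labelled Treg WT 3, the counts of genes over the whole table, the detection counts and the counts over all listed genes are also given without it.

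Each Treg library carried the defining genes of Treg. Foxp3, the transcription factor that defines Treg, read 311, 292 and 616 in Treg WT and 279, 546, 453 and 335 in Treg KO, against 1.00 to 39.3 in Tconv; exons of Ccdc22 and Ppp1r3f overlap it. Ctla4 read 6025 to 8699 in Treg WT and 6823 to 7889 in Treg KO, above its 1911 to 3782 in Tconv. Cd3e, a subunit of the T cell receptor complex, read 1488 to 2088 and 1401 to 1778. These genes overlapped between the genotypes, while Treg KO 3 and Treg KO 1 each held transcripts that set them apart in ways the labels do not explain. Treg KO 3 was low in 3 of 4 Y-linked genes, Ddx3y (158, against 749 to 1534 in Treg WT), Eif2s3y (50.6, against 315 to 665) and Uty (40.6, against 244 to 333), but not in Kdm5d (165, against 118 to 334). Xist, expressed from the inactive X of females, read 8.08 there, within its 4.31 to 9.72 in Treg WT, and was highest in Treg KO 1 at 28.7. Treg KO 1 carried red cell and macrophage transcripts, which are described with the markers of other cell types.

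**Figure D1:**
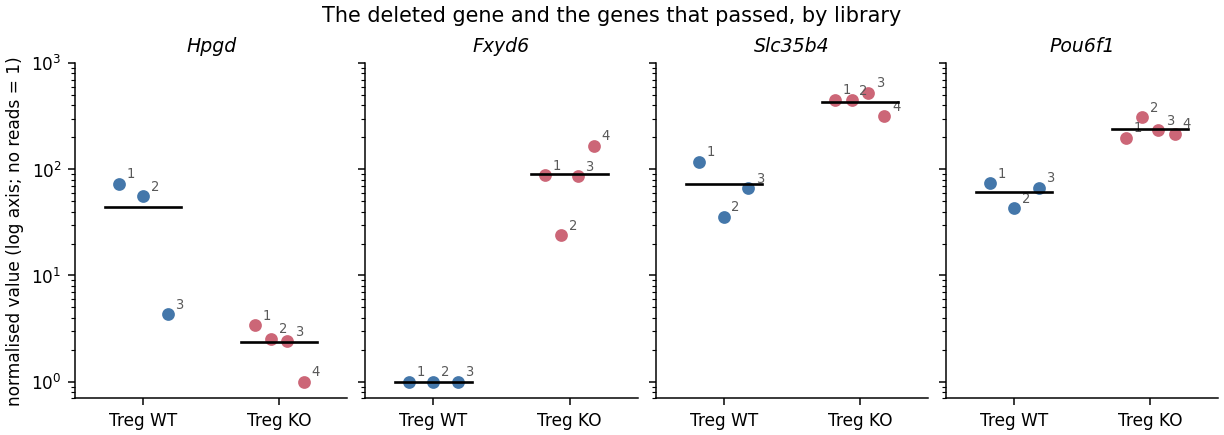
Normalised values (log axis; 1 means no reads) of Hpgd and of the 3 genes that passed the test, in the 3 Treg WT (blue) and 4 Treg KO (red) libraries; numbers are replicate numbers and lines are group means. Hpgd of the library labelled Treg WT 3 sits beside the Treg KO libraries, and the groups do not overlap for any of the 4 genes.

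Of 14319 genes tested, 3 rose in Treg KO and 0 fell at an adjusted p under 0.05 (limma with Benjamini-Hochberg adjustment), which is 0.0210% of the genes. The 3 were Fxyd6, Slc35b4 and Pou6f1, and none of them belongs to the prostaglandin, PPAR or Treg lists described below. Without the library labelled Treg WT 3 none passed, with adjusted p = 0.0984 (Fxyd6), 0.118 (Slc35b4) and 0.118 (Pou6f1) in limma, and without Treg WT 1 the number was 17, all higher and these 3 among them. Without Treg WT 2 it was 3, all higher, and of the genes named above only Fxyd6 was among them. The adjusted p was then 0.0429 (Fxyd6), 0.142 (Slc35b4) and 0.194 (Pou6f1) in limma. With only the 7 Treg libraries in the fit the number was 0, with 795 genes at an unadjusted p under 0.05.

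Fxyd6 (chromosome 9, 45370185 to 45396159) encodes a small membrane protein of the FXYD family, whose members modulate the sodium pump. No Treg WT library had a read of it, whereas values of 87.8, 24.0, 86.0 and 167 in Treg KO came from 72, 15, 60 and 171 reads. The Treg KO mean was 23.5-fold above a floor of 3 reads per library. Fxyd6 had a log2 difference of 5.24 (95% interval 3.74 to 6.74, adjusted p = 0.00849 in limma). In Tconv it stood at or under 2.39 in all 9 libraries, so it entered the test through the Treg KO libraries alone, and the shared estimate of the spread draws on groups at or near no reads. With only the Treg libraries in the fit its adjusted p was 0.545 in limma at the same log2 difference of 5.24. The log2 difference of Treg KO from WT exceeded that of Tconv by 5.23, but the test of this difference did not pass (adjusted p = 0.293 in limma). Slc35b4 (chromosome 6, 34153380 to 34177111) encodes a nucleotide sugar transporter that carries UDP-xylose and UDP-N-acetylglucosamine. It read 118, 35.9 and 66.1 in Treg WT and 454, 445, 525 and 316 in Treg KO (log2 difference 2.69, 95% interval 1.81 to 3.57, adjusted p = 0.0247 in limma). The lowest Treg KO library was 2.68-fold above the highest Treg WT library. Its exons overlap an antisense transcript, Gm13856, so its reads are uncertain without strand. Pou6f1 (chromosome 15, 100575318 to 100599984) encodes a POU-domain transcription factor. It read 74.0, 42.9 and 67.2 in Treg WT and 199, 308, 235 and 217 in Treg KO (log2 difference 1.97, 95% interval 1.28 to 2.65, adjusted p = 0.0389 in limma), again without overlap. In Tconv, Slc35b4 stood at 232 ± 54.1 in WT and 284 ± 121 in KO and Pou6f1 at 359 ± 65.1 and 425 ± 89.9 (SD, n = 4 and 5), so Tconv of both genotypes held levels above those of Treg WT.

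The 300-base windows around the RefSeq starts of these 3 genes (GRCm38.p6, printed 5′ to 3′ on the gene's own strand) are shown because cyclic AMP, the messenger below the prostaglandin E2 receptors, acts on genes through the cAMP response element. The windows are chr9:45369935-45370234 on the plus strand for Fxyd6, chr6:34177005-34177304 on the minus strand for Slc35b4 and chr15:100599935-100600234 on the minus strand for Pou6f1. Capitals mark the core TGACG or its reverse complement CGTCA.
Fxyd6: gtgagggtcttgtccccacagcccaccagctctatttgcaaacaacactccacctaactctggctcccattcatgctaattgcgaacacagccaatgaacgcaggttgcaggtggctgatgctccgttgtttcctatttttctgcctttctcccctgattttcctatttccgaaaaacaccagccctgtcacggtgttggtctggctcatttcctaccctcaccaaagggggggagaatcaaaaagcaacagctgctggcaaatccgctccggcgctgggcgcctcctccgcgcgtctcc
Slc35b4: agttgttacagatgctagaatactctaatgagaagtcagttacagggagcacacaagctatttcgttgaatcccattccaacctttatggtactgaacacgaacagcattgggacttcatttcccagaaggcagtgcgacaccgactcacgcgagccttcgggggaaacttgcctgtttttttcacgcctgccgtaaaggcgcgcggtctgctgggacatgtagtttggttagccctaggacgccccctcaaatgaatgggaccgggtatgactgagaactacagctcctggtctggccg
Pou6f1: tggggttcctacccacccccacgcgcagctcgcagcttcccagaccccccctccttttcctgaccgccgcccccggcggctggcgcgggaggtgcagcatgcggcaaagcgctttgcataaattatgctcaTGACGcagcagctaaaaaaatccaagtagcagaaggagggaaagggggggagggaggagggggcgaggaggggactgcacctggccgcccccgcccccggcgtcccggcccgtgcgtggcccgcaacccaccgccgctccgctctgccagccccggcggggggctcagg
Both strands were searched for the full element TGACGTCA, for its core TGACG, which the full element contains, and for AGGTCA, the core site of nuclear receptors such as PPARγ. Only Pou6f1 held a match, 1 copy of TGACG at position 132 of the window. Of 32851 promoter windows of the same length, 20.8% held TGACG, 1.79% the full element and 16.3% AGGTCA, so 1 match in 3 windows is near the background.

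At an unadjusted p under 0.05 in limma, 587 genes were higher in Treg KO (4.10% of those tested) and 303 lower (2.12%). Values did not overlap between the groups for 479 genes that were higher in Treg KO (3.35%) and 381 that were lower (2.66%). Without the library labelled Treg WT 3 the numbers without overlap were 978 and 954, where fewer libraries must be separated. The shift towards higher values was largest among genes of low level and moved with the scaling. At an unadjusted p under 0.05, 64 genes were higher and 5 lower below a mean of 10, 207 and 46 between 10 and 50, and 148 and 89 between 50 and 200. There were 123 higher and 135 lower between 200 and 1000, and 45 and 28 from 1000 up. The median log2 difference was 0.457 among the 1636 genes with a mean under 10 and 0.343 among the 3295 genes between 10 and 50, beside 0.0572 between 50 and 200, −0.0316 among the 4503 genes between 200 and 1000 and 0.0486 from 1000 up. Under quantile scaling, which gives every library the same distribution of values, these medians were −0.0501, −0.0818, 0.0203, 0.0118 and 0.0262, and the numbers at an unadjusted p under 0.05 were 457 higher and 367 lower. The median over all genes was 0.0753, and −0.000952 under quantile scaling. Treg KO libraries had reads for more genes, as given above, and the part of this in the higher values of low genes was not tested. A gene read only in Treg KO libraries could pass the filter through 3 of the 4, and one read only in Treg WT needed all 3. The part of the filter in this shift was not tested either. With no filter, 815 genes were higher and 371 lower at an unadjusted p under 0.05 in limma. The numbers at an unadjusted p under 0.05 were 591 higher and 336 lower without the library labelled Treg WT 3.

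**Figure D2:**
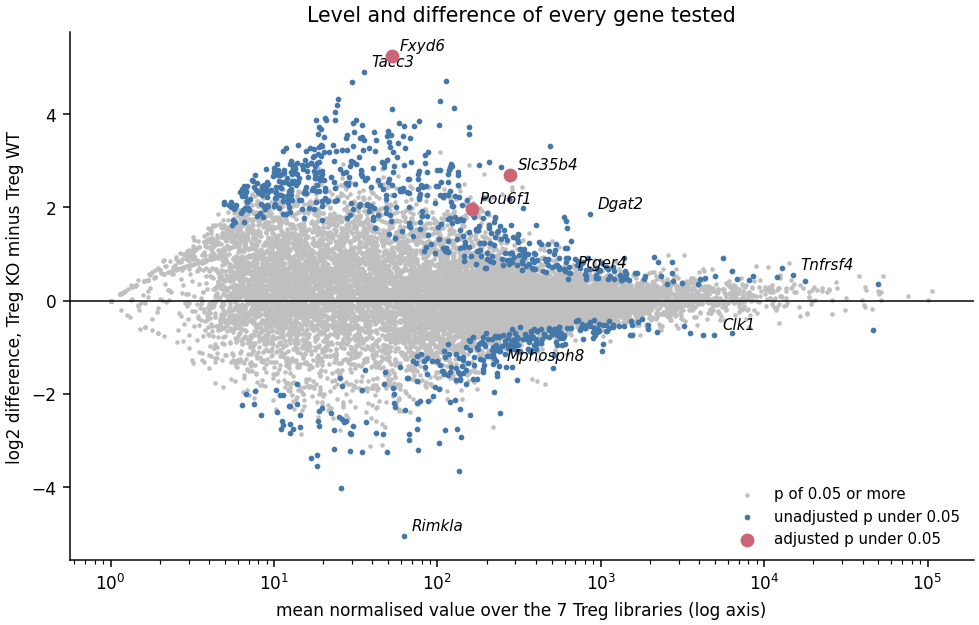
Each of the 14319 genes tested, by its mean normalised value over the 7 Treg libraries (x, log axis) and its log2 difference between Treg KO and Treg WT (y). The 3 genes at an adjusted p under 0.05 (red) lie above 0, and genes under 50 lie more often above 0 than below it, with medians of 0.457 and 0.343 in the lowest 2 ranges of level.

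The precision differed as much as the differences did. For 3380 genes (23.6%) the 95% interval of the log2 difference lay within 2-fold either way, and 3299 of these had a mean of 200 or more. The number was 2650 without the library labelled Treg WT 3. Below a mean of 50 no gene reached that precision. A lack of difference at low level therefore says little about genes such as Ptgs2 or Il13.

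Next to the 3 genes that passed stood others without overlap between the groups and with a mean of 50 or more in the higher group, with adjusted p from 0.104 to 0.607 in limma for the 9 with the smallest p among those higher in Treg KO. Tacc3, a mitotic spindle protein, had no reads in Treg WT and read 68.5, 85.5, 52.0 and 38.9 in Treg KO. Its Treg KO mean was 15.7-fold above the floor of 3 reads per library. It had a log2 difference of 4.90 (95% interval 3.01 to 6.79, adjusted p = 0.104 in limma). Its exons overlap those of Tmem129. In Tconv it was present in both genotypes, at 44.3 to 139 in WT and 5.44 to 203 in KO. Cracr2a, a calcium-sensing regulator of store-operated calcium entry in T cells, read 48.5, 34.1 and 15.3 in Treg WT and 120.3, 264, 159.6 and 87.6 in Treg KO (log2 difference 2.26, 95% interval 1.30 to 3.22). Fggy, a carbohydrate kinase, read 6.48, 38.5 and 1.00 in Treg WT and 86.6, 165, 134 and 111 in Treg KO, and had no reads in any Tconv library. Without the Treg KO libraries, too few libraries would have reached the level needed for Fggy to be tested. The shared estimate of its spread also draws on Tconv groups without reads, so its small p carries the limit given for Fxyd6. Top3b, a topoisomerase, read 315, 89.1 and 204 in Treg WT and 524, 571, 552 and 556 in Treg KO, and the 4 Treg KO values lay within 46.8 of each other while the Treg WT values spread over 3.53-fold. Smarcd3, a subunit of SWI/SNF chromatin remodelling complexes, read 28.4, 4.49 and 1.00 in Treg WT and 105, 231, 264 and 161 in Treg KO, a 4.72 difference on the log2 scale with a wide interval of 2.19 to 7.24. The other four were Pgam5, a mitochondrial phosphatase, St3gal3, a sialyltransferase, Zfp362, a zinc finger protein, and Paqr7, a membrane progestin receptor, with log2 differences from 1.51 to 4.12.

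Among genes lower in Treg KO, the smallest p belonged to Rimkla, which encodes a ligase that makes N-acetylaspartylglutamate. It read 84.1, 124 and 202 in Treg WT and 1.00, 27.1, 1.00 and 1.00 in Treg KO, so 3 of the 4 Treg KO libraries had no reads (adjusted p = 0.414 in limma). Mphosph8, a subunit of the HUSH complex that silences heterochromatin, read 303, 347 and 466 in Treg WT and 138, 130.1, 145 and 140.1 in Treg KO (log2 difference −1.40, 95% interval −2.09 to −0.70, adjusted p = 0.522 in limma). The Treg KO values were within 15.4 of each other, and the highest was 0.480 of the lowest Treg WT value. Clk1, a kinase that phosphorylates splicing factors, was well measured and read 7030.3, 7220.4 and 5112 in Treg WT and 4318, 4003, 3728 and 3265 in Treg KO (log2 difference −0.74, 95% interval −1.12 to −0.36). Eif5, a translation initiation factor, was lower to a similar degree, at 3655, 4207 and 5665 in Treg WT and 2835, 2831, 2249.6 and 3192 in Treg KO (log2 difference −0.69, 95% interval −1.10 to −0.27). Nfe2l2, which encodes NRF2, the main activator of antioxidant genes, read 280.3, 422 and 509 in Treg WT and 224, 182, 73.2 and 146 in Treg KO (log2 difference −1.43, 95% interval −2.21 to −0.65). These genes were named as the 12 lower genes with the smallest p among those without overlap and with a mean of at least 50 in the higher group, so their lack of overlap comes from the choice. The rest of the 12 were Eme2, Gnptab, Invs, Msantd2, Thsd1, Trim8 and Slc35e2, with log2 differences from −4.02 to −0.95 and adjusted p from 0.565 to 0.689 in limma. Gnptab makes the mannose-6-phosphate tag that sends enzymes to lysosomes, and it read 213, 172 and 137 in Treg WT and 57.7, 85.5, 26.5 and 79.8 in Treg KO.

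Presence and absence of reads was uneven between the groups. In the table, 83 genes had no reads in any Treg WT library and reads in every Treg KO library, against 7 the other way round, and 52 and 1 of them were tested. With at least 10 reads in every Treg KO library, 6 genes remained: Fxyd6, Tacc3, Arhgap11a, Nthl1, Susd2 and C920006O11Rik, and 0 genes the other way round. Without the library labelled Treg WT 3 the 83 against 7 became 144 against 24, and the 6 against 0 became 13 against 2. Arhgap11a, a GTPase-activating protein of dividing cells, read 16.7, 22.5, 35.0 and 48.7 in Treg KO. Nthl1, a DNA glycosylase of base excision repair, read 33.5, 47.1, 67.6 and 21.4, and Susd2, a sushi-domain membrane protein, read 46.8, 54.8, 69.0 and 37.0. Since Treg KO libraries had reads for more genes of all kinds, the part of this in the 83 against 7 was not tested.

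Genes of 22 pathways and programmes were followed as lists, 426 genes in the table of which 407 were tested. None of the 407 passed, and the smallest adjusted p was 0.104 in limma, for Tacc3. At an unadjusted p under 0.05, 28 of them (6.88%) were higher in Treg KO and 10 (2.46%) lower, beside 4.10% and 2.12% of all genes, and groups did not overlap for 17 (4.18%) and 4 (0.983%), beside 3.35% and 2.66%. The median log2 difference of the 407 was 0.148, beside 0.0753 over all genes. Of all genes tested, 55.7% had a positive difference, and the positive counts of the lists below stand beside that share. With the library labelled Treg WT 3 left out, 0 of these genes passed, 30 were higher and 13 lower at an unadjusted p under 0.05, groups did not overlap for 36 and 15, and the median was 0.204. In the lists below, every member named therefore missed the adjusted threshold, and its values are given as a description. RNA from sorted cells is a mean over cells, so fewer cells expressing a gene and less RNA per cell cannot be told apart.

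**Figure D3:**
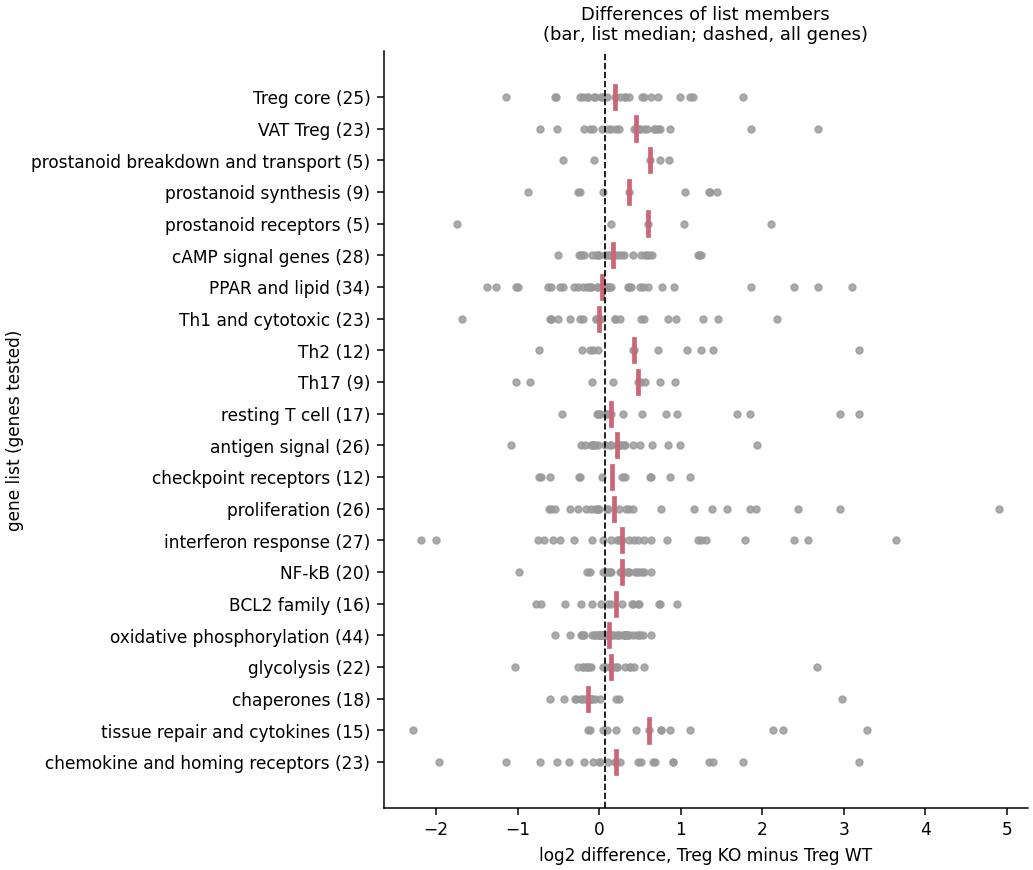
Log2 differences between Treg KO and Treg WT (x) of the tested members of 22 gene lists (grey points; number tested in brackets), with each list's median (red bar) and the median of all genes tested (dashed line, 0.0753). List medians lie between −0.13 for chaperones and 0.62 for prostanoid breakdown and transport, and members spread widely on both sides of 0.

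The prostaglandin pathway was measured from synthesis to receptor. Of the synthesis genes, 9 of 12 were tested, 6 of them with a positive and 3 with a negative difference (median 0.37), and no groups were without overlap. Ptgs1, the constitutive cyclooxygenase, read 159, 1.87 and 49.5 in Treg WT and 28.7, 181, 50.6 and 127 in Treg KO, while Ptgs2, the inducible one, had reads only in the library labelled Treg WT 3 (10.9) and Treg KO 2 (10.2). Ptges, an inducible prostaglandin E synthase, read 2.83, 14.96 and 2.10 in Treg WT and 7.03, 16.4, 36.4 and 7.81 in Treg KO (log2 difference 1.35, 95% interval −0.36 to 3.06), under the floor of 3 reads in Treg WT 1 and in the library labelled Treg WT 3. Ptges3, the cytosolic synthase and HSP90 co-chaperone p23, was the best measured at 1453, 1325 and 2019 in Treg WT and 1549, 931, 1522 and 1353 in Treg KO (log2 difference −0.26, 95% interval −0.71 to 0.19). Hpgds, the haematopoietic prostaglandin D synthase, read 174, 8.85 and 254 in Treg WT and 103, 170.0, 179 and 189.8 in Treg KO, and its positive difference of 1.05 rests on Treg WT 2, since it was −0.42 without that library. The phospholipases Pla2g4b and Pla2g6, which release arachidonic acid, overlapped between the groups.

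Breakdown and transport genes other than Hpgd gave 5 tested members, 3 positive and 2 negative. Slco2a1, the carrier that takes prostaglandins into cells for breakdown, read 9.22, 25.4 and 66.1 in Treg WT and 15.5, 16.4, 12.3 and 36.0 in Treg KO. Abcc4, which exports prostaglandins, read 117, 42.9 and 57.2 in Treg WT and 111, 211, 116 and 77.9 in Treg KO (log2 difference 0.86, 95% interval −0.30 to 2.01). Ptgr2, a reductase that acts on 15-keto prostaglandins after Hpgd, read 163, 19.3 and 63.9 in Treg WT and 122, 77.8, 87.4 and 84.7 in Treg KO and Ptgr1, the related reductase, 1.00 to 13.2 and 1.00 to 34.8. All of these overlapped between the groups.

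Of the receptors, Ptger4 (EP4) stood out in precision. It read 488, 564 and 449 in Treg WT and 621, 879.8, 720.3 and 822 in Treg KO, so each Treg KO library lay above each Treg WT library, with a log2 difference of 0.60 (95% interval 0.15 to 1.05, adjusted p = 0.741 in limma). Ptger2 (EP2), the other receptor that raises cyclic AMP, read 108, 278 and 15.3 in Treg WT and 225, 271, 44.9 and 251 in Treg KO, and the groups overlapped widely. Ptger1 (EP1) read 10.1, 211 and 143 in Treg WT and 45.6, 109, 1.00 and 17.5 in Treg KO, while Ptger3 (EP3) had reads only in Treg KO 2. The prostacyclin receptor Ptgir read 168, 179 and 766 in Treg WT and 314, 107, 433 and 671 in Treg KO, and the thromboxane receptor Tbxa2r 8.30, 83.0 and 1.00 in Treg WT and 23.9, 175, 76.0 and 17.5 in Treg KO. The receptors of prostaglandin D2 and F2α were at or near the floor: Ptgdr2 had no reads, and Ptgdr and Ptgfr reached at most 7.15 and 2.95. In all, 5 of 9 receptors were tested, with 4 positive and 1 negative difference (median 0.60).

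Genes of the cyclic AMP pathway did not move as a block. Of 28 tested members 20 had a positive and 8 a negative difference, the median was 0.17, and 14 had an interval within 2-fold either way. Pde7a, a phosphodiesterase that degrades cyclic AMP, read 12.0, 107 and 76.0 in Treg WT and 116, 132, 90.2 and 105 in Treg KO (log2 difference 1.22, 95% interval 0.17 to 2.27), with Treg WT 1 far below the other six libraries. Crtc2, a coactivator of the cAMP response factor CREB, read 573, 190.3 and 713 in Treg WT and 892, 631, 567 and 626 in Treg KO, and Prkaca, the catalytic subunit of protein kinase A, 201, 76.0 and 183 in Treg WT and 243, 122, 297 and 245 in Treg KO. Atf1, a CREB relative, read 309, 463 and 377 in Treg WT and 341, 251, 177 and 336 in Treg KO, with all 4 Treg KO libraries below the higher 2 of Treg WT. The immediate targets Nr4a3 and Fos overlapped, with Nr4a3 at 2546, 2082 and 3876 in Treg WT and 3258, 2905, 3819.9 and 4922 in Treg KO. Without Treg WT 2 the median of this list was −0.08, so its sign rests on that library.

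Several genes that define Treg were measured closely. Of 25 core members 16 had a positive and 9 a negative difference (median 0.19), and 8 had an interval within 2-fold either way, beside 23.6% of all genes. Tnfrsf18 (GITR), a costimulatory receptor, read 11296, 9204 and 9501 in Treg WT and 11143, 9943, 11674 and 12913 in Treg KO (log2 difference 0.19, 95% interval −0.15 to 0.53). Ctla4, the inhibitory receptor, read 6755, 6025 and 8699 in Treg WT and 6823, 7889, 7325 and 7061 in Treg KO (log2 difference 0.038, 95% interval −0.39 to 0.46), and Icos, a costimulatory receptor, 1271, 2448 and 1605 in Treg WT and 1598, 1542, 1178 and 1529 in Treg KO (log2 difference −0.24, 95% interval −0.79 to 0.32). For these 3 receptors a 2-fold difference in either direction lies outside the interval. Tnfrsf4 (OX40) read 11359, 9403 and 15048 in Treg WT and 14451, 15079, 18359 and 21804 in Treg KO (log2 difference 0.55, 95% interval 0.034 to 1.07), and only Treg KO 1 lay below the highest Treg WT library. Foxp3 itself had an interval of −1.97 to 2.02 in the shared fit, which includes Tconv, where it scattered near the floor, and with only the 7 Treg libraries in the fit the interval was −0.78 to 0.83.

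Other core genes were less even. Ikzf4 (Eos), a partner of Foxp3, read 268, 466 and 255 in Treg WT and 662, 947, 769.9 and 519 in Treg KO without overlap, with an interval of −1.56 to 3.87 in the shared fit and 0.46 to 1.85 with the Treg libraries alone. Ebi3, a subunit of interleukin-35, read 187, 122 and 127 in Treg WT and 181, 374, 311 and 445 in Treg KO. Entpd1 (CD39), an ectonucleotidase that acts with CD73 to make adenosine, was lower in all but 1 Treg KO library than in any Treg WT library, at 456, 1517 and 795 in Treg WT and 612, 204, 389 and 388 in Treg KO (log2 difference −1.14, 95% interval −2.30 to 0.013). Nt5e, which encodes CD73, read 259, 727 and 222 in Treg WT and 263, 602, 291 and 269.5 in Treg KO. Il10, the suppressive cytokine, ranged from 3200 in Treg WT 2 to 20723 in the library labelled Treg WT 3 within WT alone and from 3836 to 17184 in Treg KO.

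Genes typical of fat Treg were present in both groups. Of 23 tested members 18 had a positive and 5 a negative difference, with a median of 0.45 that is set by Treg WT 2: without that library it was −0.08. The mean log2 level over the list was 10.74, 9.56 and 10.82 in Treg WT and 11.01, 10.56, 10.73 and 10.98 in Treg KO, so Treg WT 2 was lowest, 1.00 below the next library. Il1rl1, which encodes the interleukin-33 receptor ST2, read 12534, 1725 and 14889 in Treg WT and 10916, 10742, 12704 and 10798 in Treg KO, with Treg WT 2 far below the other six. Rora, Ccr1, Areg and Cxcr6 also had their lowest value there. Pparg, the nuclear receptor of fat Treg, read 514, 301 and 405 in Treg WT and 455, 269.9, 494 and 610.1 in Treg KO, with an interval of −0.61 to 0.89 from the Treg libraries alone. Gata3 read 14539, 7428 and 15214 in Treg WT and 16025, 11267, 18289.9 and 19432 in Treg KO and Klrg1, a marker of effector cells, 15609.6, 6045 and 16024 in Treg WT and 14302, 7921, 15876 and 13074 in Treg KO, with the values of the groups interleaved for Klrg1.

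Within this list, 3 of 23 genes had groups that did not overlap, all higher in Treg KO, beside 3.35% higher and 2.66% lower of all genes. Dgat2, which makes triglycerides from diacylglycerol, read 220.1, 318 and 477 in Treg WT and 1280.0, 1516, 633 and 1534 in Treg KO (log2 difference 1.86, 95% interval 0.17 to 3.55), a mean 3.67-fold above that of Treg WT. Cish, a feedback inhibitor of interleukin-2 signalling, read 3596, 2612 and 4558 in Treg WT and 5063, 4759, 7129 and 5618 in Treg KO (log2 difference 0.67, 95% interval −0.034 to 1.38). Pcyt1a, an enzyme of phosphatidylcholine synthesis, read 1889, 1314 and 2255 in Treg WT and 2471, 2430.0, 2731 and 3094 in Treg KO. Cd36, a fatty acid transporter, had no reads in Treg WT and read 16.7, 27.1 and 26.5 in Treg KO 1, 2 and 3, but none in Treg KO 4.

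**Figure D4:**
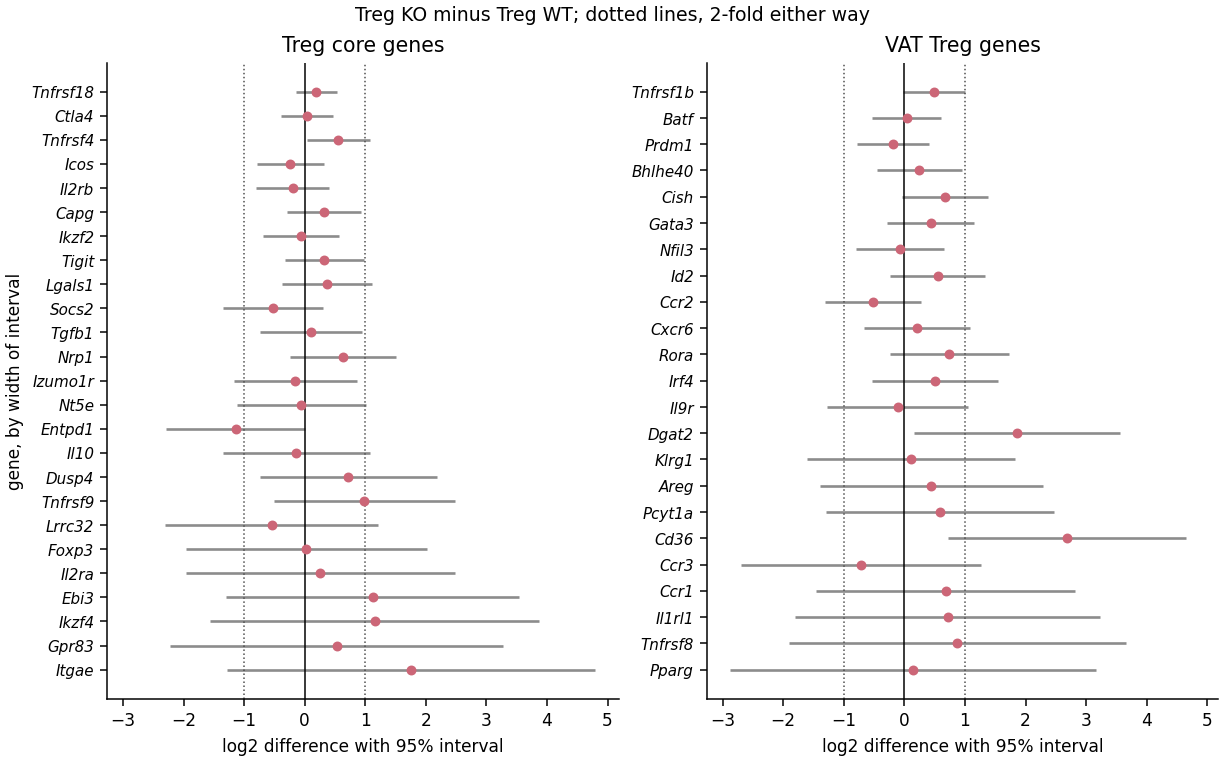
Log2 differences between Treg KO and Treg WT (points) with 95% intervals from limma (bars) for 25 Treg core genes and 23 fat Treg genes, ordered by the width of the interval; dotted lines mark 2-fold either way. Tnfrsf18, Ctla4 and Icos lie inside the dotted lines, while the interval of Dgat2 runs from 0.17 to 3.55.

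Genes of PPAR signalling and lipid handling divided evenly, with 17 of 34 tested members positive and 17 negative (median 0.03). At an unadjusted p under 0.05, 3 were higher and 3 lower, beside 4.10% and 2.12% of all genes. The higher genes were Dgat2, Cd36 and Scd2, a fatty acid desaturase that read 10.1, 1.00 and 1.00 in Treg WT and 40.8, 24.0, 40.6 and 18.5 in Treg KO. The lower ones were Acaca, Acadm and Nr1h2. Acaca, acetyl-CoA carboxylase, which starts fatty acid synthesis, read 243, 318 and 267 in Treg WT and 32.3, 218, 162 and 104 in Treg KO without overlap (log2 difference −1.38, 95% interval −2.60 to −0.16). Nr1h2, the sterol-sensing nuclear receptor LXRβ, read 1140.2, 1762 and 1300.0 in Treg WT and 732, 1079.5, 1035 and 851 in Treg KO, also without overlap (log2 difference −0.59, 95% interval −1.10 to −0.089). Acadm, which oxidises medium-chain fatty acids, read 352, 253 and 321 in Treg WT and 228, 48.6, 276 and 164 in Treg KO, lowest in Treg KO 2. Other PPAR targets did not follow one direction: Plin2, a lipid droplet protein, read 11111, 4799.7 and 9379 in Treg WT and 6721, 4036, 8663 and 9915 in Treg KO and Cpt1a, which takes fatty acids into mitochondria, 1907, 1145 and 1619.8 in Treg WT and 1219.7, 981, 2047 and 1056 in Treg KO. Fabp5, a fatty acid chaperone, and Hadhb, of the trifunctional protein, had differences of 0.39 and 0.088, the latter with an interval of −0.30 to 0.47.

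**Figure D5:**
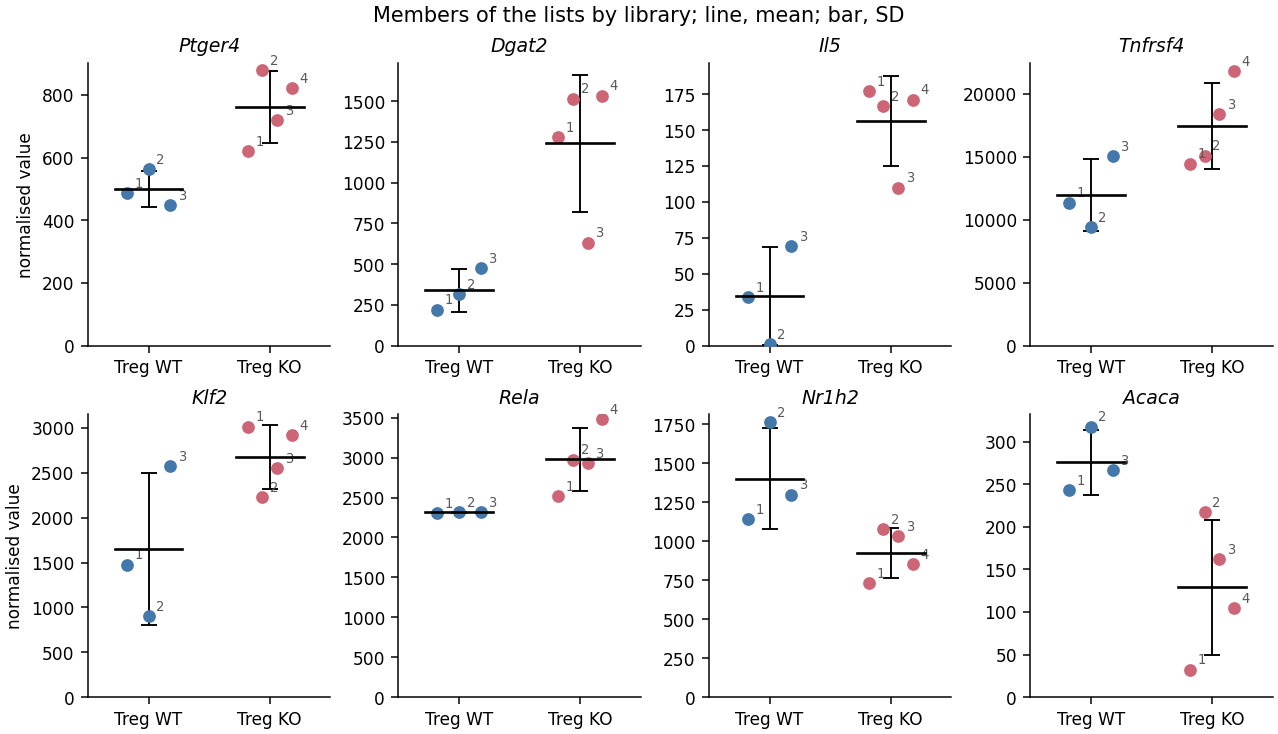
Normalised values (linear axes from 0) of 8 list members in the 3 Treg WT (blue) and 4 Treg KO (red) libraries; numbers are replicate numbers, lines are means and bars are SD. Ptger4, Dgat2, Il5 and Rela are higher in every Treg KO library than in any Treg WT library, Nr1h2 and Acaca lower, and Tnfrsf4 and Klf2 overlap. The 8 genes are a selection, and all missed the adjusted threshold. Of 407 listed genes tested, 4.18% were higher and 0.983% lower without overlap, beside 3.35% and 2.66% of all genes.

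Effector programmes of other T helper cells stayed low or mixed. Th1 and cytotoxic genes had 12 positive and 11 negative differences of 23, with a median of 0. The chemokine Ccl3 read 22.9, 82.1 and 1.00 in Treg WT and 247, 54.8, 15.2 and 117 in Treg KO and Gzmb, a granzyme, 93.2, 265 and 2.10 in Treg WT and 130.0, 112, 66.1 and 189.8 in Treg KO. Th2 genes gave 7 positive of 12 (median 0.42). Il5, a cytokine that recruits eosinophils, read 33.9, 1.00 and 69.4 in Treg WT and 177, 167, 110.0 and 171 in Treg KO, so every Treg KO library was above every Treg WT library, but the interval was wide (−0.84 to 7.21). Il4 and Il13 had few reads, at most 9.44 and 14.3. Maf, a transcription factor of interleukin-4 and interleukin-10 production, was lower in 3 of the 4 Treg KO libraries than in any Treg WT library, at 1597, 3382 and 1247 in Treg WT and 1104, 1429.8, 1074 and 958 in Treg KO (log2 difference −0.74, 95% interval −1.28 to −0.21). Th17 genes gave 6 positive of 9, with a median of 0.47 that was −0.14 under quantile scaling.

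Genes of resting T cells held the most members at an unadjusted p under 0.05 relative to their number: 5 of 17 were higher (29.4%) and 0 lower, beside 4.10% and 2.12% of all genes, and 14 of 17 had a positive difference with a median of 0.14. Among the 5 were Klf2, Txk, Id3 and Actn1. Klf2, a transcription factor that maintains quiescence and drives S1pr1, read 1476, 903 and 2573 in Treg WT and 3015, 2233, 2553 and 2921 in Treg KO (log2 difference 0.82, 95% interval 0.25 to 1.39), and only Treg KO 2 and 3 lay below the highest Treg WT library. Txk, a Tec-family kinase, read 14.7, 80.4 and 19.7 in Treg WT and 62.5, 185, 54.8 and 128 in Treg KO and Id3, an inhibitor of E proteins, 164, 1.00 and 4.31 in Treg WT and 80.6, 57.8, 209 and 74.0 in Treg KO. Other well-known resting genes showed no such pattern: Ccr7 read 341, 670.1 and 442 in Treg WT and 417, 745, 392 and 390.2 in Treg KO (log2 difference 0.0025, 95% interval −0.63 to 0.64), Lef1 412, 323 and 367 in Treg WT and 399, 411, 662 and 205 in Treg KO, Il7r 8219, 3714 and 8478 in Treg WT and 6291, 7523, 6948 and 6019 in Treg KO and Tcf7 146, 404 and 205 in Treg WT and 298, 588, 107 and 140.1 in Treg KO. The earlier results of these data already showed this list, so its count is not independent support.

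Signalling below the T cell receptor was measured at 26 genes, 17 positive and 9 negative (median 0.22, and −0.01 without Treg WT 2). Egr2, an early response factor, read 16.5, 1.00 and 41.8 in Treg WT and 36.0, 30.2, 26.5 and 114 in Treg KO. Spry1, a feedback inhibitor, read 1245, 1244 and 1583 in Treg WT and 259, 520.3, 1326 and 933 in Treg KO and was low in Treg KO 1 and 2. In Tconv, too, Spry1 was lower in KO, at a mean of 923 beside 1867 in WT (log2 difference −0.99, beside −1.08 in Treg). Among 12 checkpoint receptors, Pdcd1 (PD-1) read 5498, 5129 and 3782 in Treg WT and 5034, 9162, 7099 and 8860.2 in Treg KO (log2 difference 0.63, 95% interval 0.078 to 1.18) and Cd28, the main costimulatory receptor, 3881, 4225 and 8449 in Treg WT and 4148, 2579, 2013 and 4261 in Treg KO (log2 difference −0.74, 95% interval −1.27 to −0.21), each with overlap of the groups. The PD-1 values of Treg KO 2, 3 and 4 lay above all of Treg WT, while Treg KO 1 lay within its range.

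NF-kB genes gave 17 positive of 20, beside 55.7% of all genes, with a median of 0.28 and 11 intervals within 2-fold either way. Rela, the p65 subunit, read 2302, 2321 and 2318 in Treg WT and 2519, 2975, 2929 and 3481 in Treg KO without overlap (log2 difference 0.35, 95% interval −0.085 to 0.79). Relb, of the non-canonical pathway, read 707, 471 and 1157 in Treg WT and 1061, 1218, 1109.7 and 1135 in Treg KO (log2 difference 0.63, 95% interval 0.013 to 1.25) and Icam1, an adhesion molecule and NF-kB target, 4153, 3234 and 3169 in Treg WT and 5732, 3430.2, 5346 and 5483 in Treg KO (log2 difference 0.49, 95% interval 0.069 to 0.91). Tnip2, an inhibitor of the pathway, was the member with the lowest difference, at 356, 467 and 373 in Treg WT and 152, 408, 215 and 121 in Treg KO. The median of the list was 0.25 under quantile scaling and 0.06 without Treg WT 2.

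Interferon response genes gave 19 positive of 27 (median 0.28), and 3 had groups without overlap, all higher in Treg KO (Iigp1, Oasl1 and Oasl2), beside 3.35% higher and 2.66% lower of all genes. Iigp1, an immunity-related GTPase, read 1.00, 1.87 and 24.2 in Treg WT and 40.8, 97.8, 27.9 and 154 in Treg KO, and Oasl1 1.91, 2.74 and 2.10 in Treg WT and 7.03, 14.8, 25.1 and 38.9 in Treg KO, the latter under the floor in all 3 Treg WT libraries.

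Cell cycle genes were at low level and uneven. Of 26 tested, 15 were positive and 11 negative (median 0.18). Mki67, a marker of dividing cells, read 137, 1.00 and 90.3 in Treg WT and 206, 62.5, 263 and 183 in Treg KO and Mcm5, a replication helicase subunit, 345, 1.87 and 129 in Treg WT and 277, 161, 313 and 93.4 in Treg KO, both lowest in Treg WT 2, while Mcm4, of the same helicase, read 601, 621 and 388 in Treg WT and 296, 465, 305 and 332 in Treg KO (log2 difference −0.61, 95% interval −1.14 to −0.082). Survival genes of the BCL2 family gave 11 positive of 16 and no member at an unadjusted p under 0.05.

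Among genes of energy metabolism, those of oxidative phosphorylation were measured precisely and their differences were small. Of 44 oxidative phosphorylation genes 38 had an interval within 2-fold either way (86.4%, beside 23.6% of all genes), 33 had a positive difference, and the median was 0.12, within a range of −0.54 to 0.64. Cox5b, a subunit of cytochrome oxidase, had the smallest p, at 1161, 927 and 1000.1 in Treg WT and 1856, 1050.3, 1389 and 1837 in Treg KO (log2 difference 0.54, 95% interval 0.079 to 1.01). Ndufs7, a subunit of complex I, read 739, 879 and 738 in Treg WT and 1073, 1043, 1223 and 1109 in Treg KO without overlap. Glycolysis genes were less even, with 14 positive of 22 (median 0.14), a range of −1.04 to 2.67 and 13 intervals within 2-fold either way. The highest was Aldoc, an aldolase with an interval of −0.89 to 6.23. Ldha read 6332, 5041 and 6183 in Treg WT and 6297, 5767, 6086 and 7890.1 in Treg KO (log2 difference 0.15, 95% interval −0.20 to 0.50) and Gpi1, glucose-6-phosphate isomerase, 3221, 2225 and 2629 in Treg WT and 3122, 3287, 3414 and 4075 in Treg KO (log2 difference 0.38, 95% interval 0.0098 to 0.74).

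Chaperones were the only list of 22 with a negative median in the deposited scaling, at −0.13, and at −0.17 under quantile scaling. Of 18 members 14 were negative, and 14 had intervals within 2-fold either way, beside 23.6% of all genes. Groups did not overlap for 2 lower members and 0 higher ones, beside 2.66% and 3.35% of all genes. Dnaja1, an HSP70 co-chaperone, read 6388, 6649 and 6928 in Treg WT and 6192, 4834, 4096 and 4900.1 in Treg KO and Hsp90b1, the HSP90 of the endoplasmic reticulum, 2008, 1935 and 2109 in Treg WT and 1912, 1567, 1901 and 1597 in Treg KO, both without overlap. Hspe1, the mitochondrial HSP10, read 556, 688 and 652 in Treg WT and 586, 293, 409 and 415 in Treg KO (log2 difference −0.61, 95% interval −1.17 to −0.039). Hspb1, a small heat shock protein, had the highest difference of the list, 2.98, which was 1.55 without Treg KO 3. It read 1312 in that library, with 5.82 to 60.9 in the other Treg KO libraries and 1.00 to 18.3 in Treg WT.

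Tissue repair factors gave 12 positive of 15 (median 0.61, and 0.34 under quantile scaling). Hbegf, a growth factor of the EGF family, read 43.0, 3.62 and 1.00 in Treg WT and 83.0, 91.6, 106 and 32.1 in Treg KO (log2 difference 3.29, 95% interval 0.88 to 5.70), and Vegfa had reads in 3 Treg KO libraries and none in Treg WT. Areg, the growth factor best known from tissue Treg, read 4869.8, 844 and 4187 in Treg WT and 3247, 2129, 5237 and 4234 in Treg KO, with groups that overlapped. Among 23 homing receptors (16 positive, median 0.21), Itgb7, an integrin of mucosal homing, read 13744, 6382 and 9384 in Treg WT and 13116, 11493, 15744 and 13455 in Treg KO (log2 difference 0.51, 95% interval 0.020 to 1.00) and Gpr183, which senses oxysterols, 333, 208 and 209 in Treg WT and 283, 425, 457 and 405 in Treg KO. Ccr2 read 6015, 3004 and 4896 in Treg WT and 3693, 1806, 3359.7 and 4241 in Treg KO.

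Summed markers of other cell types were highest, in every Treg library, for type 2 innate lymphoid cells and for neutrophils and mast cells. No tested marker passed. Summed over 12 macrophage genes, levels were 82.9 to 99.2 in Treg WT and 60.3 to 427 in Treg KO, with Treg KO 1 highest. Over 6 red cell and platelet genes they were 34.0 to 91.5 and 31.2 to 1328, again highest in Treg KO 1, where C1qb of macrophages read 87.8 and had no reads in the other Treg KO libraries. B cell genes summed to 25.4 to 107 and 26.9 to 166, CD8 T and NK cell genes to 67.3 to 176 and 18.1 to 141, and dendritic cell genes to 99.4 to 245 and 181 to 321. Sums for adipocytes were 88.5 to 276 and 139 to 197, for stromal cells 15.5 to 76.1 and 9.73 to 70.7, and for endothelial cells 204 to 288 and 216 to 502. Genes listed for type 2 innate lymphoid cells, which include Il5 and Calca, summed to 668 to 3989 and 1181 to 1716. Those for neutrophils and mast cells, mostly Mmp9, summed to 1766 to 2491 and 564 to 2958. Itgax had no reads in any Treg library, and it was the only such gene of the 8 listed for dendritic cells. Slc2a4 was likewise the only such gene of the 10 listed for adipocytes. Without Treg KO 1, Fxyd6 passed (adjusted p = 0.0374 in limma) and Slc35b4 and Pou6f1 did not (both 0.0909), while their log2 differences were 5.16, 2.66 and 2.05, beside 5.24, 2.69 and 1.97 with it.

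Whether the differences belonged to Treg was asked by setting them against those of Tconv, whose Hpgd was not the target and had no reads in 8 of 9 libraries. The test of the difference of effects gave 0 of 14319 genes at an adjusted p under 0.05 in limma, with a smallest adjusted p of 0.293 and 748 genes at an unadjusted p under 0.05. The smallest values belonged to Fxyd6 and Rimkla, at 5.23 and −7.97 on the log2 scale. Rimkla differed by −5.06 in Treg and by 2.91 in Tconv, where its mean was 1.75 in WT and 31.4 in KO. Nfe2l2 differed by −1.43 in Treg and 0.24 in Tconv, and Clk1 by −0.74 and −0.065. For Tnfrsf4 the log2 differences were 0.55 in Treg and −0.38 in Tconv, and for Cracr2a 2.26 and 0.98, higher in the deleted mice in both cell types. None of these was shown to differ between the cell types at the adjusted threshold.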

How the data were processed

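RNA-seq was compared between 4 Treg KO and 3 Treg WT libraries, grouped by their titles. The values deposited by the authors are a signal per gene that is never negative. Its steps show reads scaled by 1 size factor per library and raised by 1: with this undone, all values under 1000 reads lie within 0.00480 of a whole read. Per the submitters' processing notes, CASAVA 1.8, kallisto 0.44, Partek 6.6, R 3.3.1, DESeq2 and the build mm10 were used, with no roles given, and per the labels' protocols base calls were converted by bcl2fastq2 2.20. Whether counting used strand is not given in the sources used here.

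Values were taken as log2 of the deposited value plus a pseudocount of 1, so fold changes of low genes are understated. Genes at 10 or more in at least 3 of 16 libraries were tested, 14319 in all. Limma 3.58.1 (R 4.3.3), allowing for a trend of variance with level, fitted all 16 libraries with 1 mean per group, and the groups share 1 estimate of the spread. P-values are 2-sided with Benjamini-Hochberg adjustment over all genes tested, with 0.05 as the threshold on the adjusted p. The 95% intervals are limma's, from the shared fit unless the text names another. Intervals of unlike fits cannot be compared between genes. With the Treg libraries alone that of Dgat2 was narrower, 0.997 to 2.72 against 0.17 to 3.55. That of Tnfrsf4 was slightly wider, 0.015 to 1.09 against 0.034 to 1.07. Hpgd was compared by an exact permutation test in scipy 1.17.1. The code of the fit was tested on simulated counts, with large changes in well-expressed genes and the same variability for every gene. That does not cover genes near the floor, such as Fxyd6 in Treg WT.

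The members, lists and tests were chosen with earlier results of these data known. Genes were named by rule: Hpgd, Foxp3, genes that passed, the 12 smallest p in each direction among genes without overlap and with a mean of at least 50, up to 4 genes of the smallest p per list, the 4 narrowest intervals of Treg core genes and up to 3 markers per cell type. Other named genes, such as Pparg, Ccr7, Rela, Nt5e and Ldha, were chosen after their values were seen. Positions are from GENCODE M21 on the build of mm10, in which 98.8% of 19540 symbols were found. Of 139 genes named by rule, 44 have exons that overlap another gene, so their reads are uncertain without strand. Alternatives were other scalings, pseudocounts, filters, libraries and models. T cell receptor segments and listed genes outside the table, such as Ppara, were not analysed here, and a few genes the rule names are not reported here.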

Additional observations from a re-analysis of the deposited data

Results flagged for a closer look

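In 14 of 139 genes named by rule, 1 of the 4 Treg KO libraries lay so far from the other three on the log2 scale that its gap to the nearest passed Dixon's 95% critical value for 4 samples. Chance alone gives about 1 such gene in 20 where values vary continuously, and groups of 3 libraries were not tested. For Rimkla and C1qb the other three libraries had no reads, so the gap is the whole range by construction, and the 14 of 139 cannot be set against that rate. Among genes with small p, Rimkla had reads only in Treg KO 2 (27.1) and Eme2, a subunit of a DNA endonuclease, was lowest in Treg KO 4 at 14.6, against 67.6 to 85.5 in the others. In the prostaglandin pathway, the EP2 receptor gene Ptger2 was lowest in Treg KO 3 at 44.9, against 225 to 271.

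Treg KO 3 was also lowest for Il5, at 110.0 against 167 to 177, and for Icos, at 1178 against 1529 to 1598. Treg KO 2 was lowest for Icam1, at 3430.2 against 5346 to 5732, for the survival gene Bcl2a1b, at 2196.5 against 4754 to 5518, and for the glycolytic aldolase Aldoc, at 1.00 against 86.6 to 148. Reads of Bcl2a1b may be split with its near-identical gene copies.

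The other six were markers of other cell types. The B cell gene Ms4a1 was highest in Treg KO 2 at 47.1, against 16.6 to 18.5, and the dendritic cell gene Xcr1 lowest there at 44.0, against 69.0 to 74.5. The complement gene C1qb of macrophages had reads only in Treg KO 1 (87.8), where Cd8b1, a chain of CD8, was lowest at 4.62, against 90.1 to 126. Treg KO 4 was lowest for Apoe, at 20.46 against 97.8 to 129, and for Lpl, at 91.5 against 138 to 147.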

How the results depend on the processing

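The 2 planned count models, edgeR and DESeq2, were not run. The deposited values are scaled and carry an added 1, and neither model was applied to the recovered reads. Limma with voom weights on the reads recovered from the steps between values, added after the data were seen, called 0 genes, with 650 at an unadjusted p under 0.05. The 3 calls became 0 with only the Treg libraries in the fit, 0 with the replicate block and 1 with a filter at 50, and ran from 0 to 17 when 1 library was left out. They were 2 with no filter, 3 under quantile scaling and 4 with a pseudocount of 0 or 10 (Tacc3 or Fggy being the added gene). They were also 3 when Tconv WT 1 and 3 and Tconv KO 3 were left out at once, an alternative added after the data were seen. Tconv KO 3 held 56.7 M reads, beside 3.39 M to 9.26 M in the other Tconv libraries. Fxyd6 had adjusted p = 0.0536 in limma with the replicate block, as did Slc35b4, and Pou6f1 0.335; Fxyd6 had 0.385 with the filter at 50. Left-out libraries gave adjusted p from 0.00181 to 0.0984 for Fxyd6, 0.00793 to 0.142 for Slc35b4 and 0.0361 to 0.194 for Pou6f1. For the difference between Treg and Tconv, 0 to 2 genes were called with 1 library left out, 2 without Treg KO 2 (Fxyd6 and Rimkla) and 1 without Treg WT 1 (Gins2). Genes without overlap numbered 860, 841 under quantile scaling, and 1341 to 2301 with 1 library left out, where fewer libraries must be separated. The 890 genes at an unadjusted p under 0.05 ranged from 636 (filter at 50) to 1311 (without Treg WT 1), and the log2 difference of Hpgd from −4.34 to −1.80. The replicate numbers pair nothing in the labels, and same-numbered libraries deviated together at r = 0.0699, 0.0744 and 0.00751, so the block only shares numbers. Of 22 list medians, 7 changed sign without Treg WT 2, and no other library or setting changed more than 1. The causes of these changes were not tested.

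Of 2342 values of 147 named genes under the alternatives, 55 changed direction, all of genes that missed the threshold and 24 of them without Treg WT 2. With 1 library left out the log2 difference ran from −0.167 to 0.369 for Foxp3, −0.159 to 1.35 for Ptgr2, −0.086 to 1.68 for Ptgr1, −1.12 to 0.238 for Slco2a1, −0.421 to 1.93 for Hpgds, −0.0936 to 1.95 for Ptger2, −2.81 to 0.194 for Ccl4 and −0.103 to 2.40 for Ccr4. It ran from −0.0258 to 1.28 for Rora, −0.166 to 1.36 for Bbc3, −0.071 to 0.789 for Bcl2a1b, −0.0777 to 0.187 for Ctla4, −0.45 to 0.023 for Icos, −0.36 to 0.904 for Areg, −0.484 to 1.49 for Ccr1 and −0.222 to 0.264 for Ccr7. For further genes the range was −0.361 to 0.675 for Cxcr6, −0.103 to 0.707 for Fos, −0.434 to 2.78 for Gzmb, −0.021 to 0.183 for Hadhb, −0.279 to 1.28 for Il1rl1, −0.324 to 0.272 for Il7r, −0.353 to 0.35 for Klrg1 and −0.178 to 0.384 for Lef1. The last ranges were −0.151 to 3.31 for Mcm5, −0.379 to 0.476 for Nt5e, −0.555 to 0.0689 for Plin2, −0.0557 to 0.376 for Pparg, −0.235 to 0.856 for Ptgir, −0.217 to 2.68 for Ptgs1 and −0.476 to 0.387 for Tcf7. With the replicate block it became −0.331 for Foxp3, 0.0819 for Nt5e and 0.0174 for Tcf7, under quantile scaling −0.00749 for Klrg1 and 0.0319 for Tcf7, and by voom −0.0441 for Ccr7.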
